A study of Sus scrofa with 18 samples.

Results

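The genes described here are the matrix metalloproteinases (MMPs), their tissue inhibitors (TIMPs), the ADAMTS and ADAMTS-like proteins and the lysyl oxidases, taken as every row of the count table whose symbol is that of a numbered member of these families. The rule found 53 of the 29884 genes in the table: 20 MMPs, 4 TIMPs, 19 ADAMTS, 5 ADAMTS-like genes and 5 lysyl oxidases. They were measured by RNA-seq in subcutaneous fat (SAF) taken over the last ribs and in visceral fat (VAF) taken near the kidney, in males of the Bama miniature pig. The pigs were sired by 1 boar, were kept and fed alike, were untreated apart from a fast before slaughter, and were 1, 3 or 6 months old. There were 9 pigs, 3 at each age, and each gave SAF and VAF, so that the 6 groups of depot and age hold 3 libraries each. Libraries are named by depot, age and number, so that VAF3-1 is VAF library 1 of 3 months. The ages are different pigs, and the libraries of a depot are not repeated measures of the same animal.

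The extracellular matrix of fat is a mesh of fibrillar collagen, basement membrane, elastic fibres and proteoglycans around each adipocyte, and it is rebuilt as the cells enlarge. MMPs are zinc proteases that are secreted or held on the membrane as inactive proenzymes and, between them, cleave most matrix proteins. The TIMPs bind the active site of MMPs, and TIMP3 also inhibits several ADAMTS enzymes. ADAMTS enzymes trim procollagens and cleave proteoglycans of the versican and aggrecan family, the ADAMTS-like proteins resemble them but lack the protease domain, and lysyl oxidases start the crosslinking of collagen and elastin.

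Total counts on genes ranged from 16404239 in SAF6-3 to 22857354 in VAF1-3. VAF6-3 was left out of the tests, as the study did, and its level is given on its own for the members described in full, so that 17 libraries entered the fit and VAF of 6 months had 2. The labels of 4 VAF samples, of the 2 older ages, contradict themselves on which library they are. The groups used here follow the column names of the count table, and what changes under the other reading, which moves VAF6-1 to 3 months, takes VAF6-3 in at 6 months and leaves VAF3-3 out, is given at the end. The 8 adipocyte markers, which include ADIPOQ and PLIN1, summed to between 5053 and 20610 CPM, that is counts scaled to the library size, in the 17 libraries, and the lowest sums were those of VAF3-1 (5791) and VAF3-2 (5053). These libraries also held markers of other tissue. The 6 urothelial markers, among them the uroplakins UPK1A, UPK2 and UPK3A, summed to 1468 CPM in VAF3-1 and 548.6 CPM in VAF3-2, against 0.375 to 5.06 CPM in the other 15 libraries. The 7 smooth muscle markers summed to 8498 and 7821 CPM there, against 315.6 to 1269 CPM in the others. SAF6-3 had the lowest sum of the 7 fibroblast markers, at 4617 CPM against 12150 to 61250 CPM in the other 16 libraries. Values without these libraries stand beside the results they touch most. In the study's own read statistics, the number of reads removed for unread bases sets all SAF libraries but SAF6-3 apart from VAF, and its part in a difference between depots cannot be told apart. In bulk tissue, fewer cells of a type and less RNA per cell cannot be told apart either.

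CPM were computed with TMM-adjusted library sizes. To compare one gene with another, CPM were divided by the length of all exons of the gene in kb. On this scale MMP2 was the most abundant of the 53 genes, with a mean of 271.4 CPM per kb over the 17 libraries, followed by TIMP3 (120.2), TIMP2 (114.6), MMP14 (110.5), LOXL2 (65.8) and TIMP1 (62.6). These 6 genes held 69.0% of the summed level per kb of all 53 genes. MMP2 is the gelatinase that cleaves denatured collagen and basement membrane collagen, and MMP14 is the membrane-bound enzyme that activates the MMP2 proenzyme with TIMP2 as its partner. The leading gene of each of the other groups was MMP19 (44.6 CPM per kb) among MMPs outside the classical groups, the procollagen N-proteinase ADAMTS2 (35.6), ADAMTS10 (14.4) among ADAMTS enzymes linked to microfibrils and of less known role, ADAMTSL4 (11.7) among the ADAMTS-like genes, ADAMTS1 (11.6) among the proteoglycan-cleaving ADAMTS, ADAMTS12 (9.25) among those that cleave COMP, and MMP11 (9.02) among the stromelysins. ADAMTS13, the protease of von Willebrand factor, was at 0.241 CPM per kb. Of the 53 genes, 49 passed edgeR's filter on low counts. The 4 that did not were MMP8, MMP12, MMP20, the enamel protease, and MMP24. MMP20 had at most 1 count in any library and MMP12 at most 4. In the plot of levels per kb, MMP1, MMP13, MMP7 and MMP3 have most libraries at or near 0 and single libraries far above them.

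**Figure D1:**
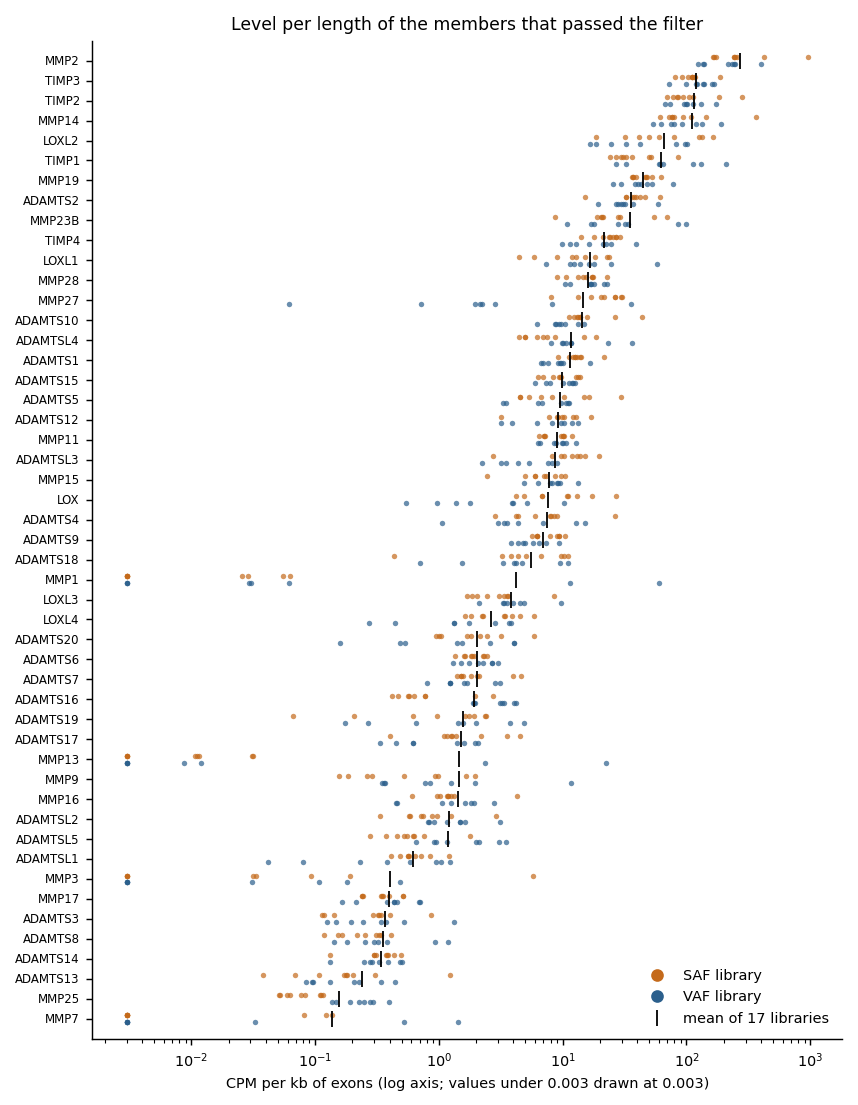
Level per length of the 49 members that passed the filter, in CPM per kb of exons on a log axis. Each point is a library of SAF or VAF (17 libraries, without VAF6-3), and the black tick is their mean; MMP2 lies highest at 271.4, and MMP1 and MMP13 have means set by 2 VAF libraries.

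Differences were tested with edgeR's quasi-likelihood test in 1 model of the 6 groups, with Benjamini-Hochberg adjustment over the 16664 genes tested. Calls required an adjusted p under 0.05 and a fold of at least 1.5 either way, which is 0.585 on the scale of the log2 fold change (log2FC). A positive log2FC means higher in SAF, or higher at the older age. Values after the ± sign of a log2FC are its standard error, and those after a mean CPM are the SD.

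Averaged over the 3 ages, 7 of the 49 members tested were called between SAF and VAF, which is 14.3% of them, against 4.09% of all genes tested. MMP27, ADAMTSL3, ADAMTS10 and LOXL4 were higher in SAF, and MMP25, ADAMTS16 and ADAMTSL5 were higher in VAF. Of all genes, 1.18% were called with SAF above VAF and 2.9% with VAF above SAF. The median log2FC of the 49 members was 0.06, and that of all genes tested was -0.01. The sum of the fibroblast markers, most of it COL1A1 and COL3A1, overlapped between depots, at 4617 to 61170 CPM in SAF and 12150 to 61250 CPM in VAF. Without SAF6-3, the lowest library, it was at 28370 to 61170 CPM in SAF. Without VAF1-1, the highest library, it was at 12150 to 28180 CPM in VAF. PI16 of the same list was higher in VAF, at 13.1 to 138.9 CPM in SAF and 195.4 to 741.4 CPM in VAF. MFAP5 was at 119.4 to 487.7 CPM in SAF and 225.4 to 1212 CPM in VAF. COL1A1, COL3A1, PDGFRA, LUM and DPP4 each overlapped between depots. The part of fibroblasts in the differences of the members was not tested. At an unadjusted p under 0.05 there were 13 members, beside 24.7% of all genes. Only ADAMTS16 and MMP25 were called when VAF3-1 and VAF3-2 were both left out. The count was 12 without VAF3-3, where 12.9% of all genes were called, and 1, MMP25, without VAF6-1, beside 1.31%. Because SAF and VAF of an age come from the same 3 pigs, while the sources used here do not say which libraries share a pig, this test treats the libraries as independent.

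MMP25, a membrane-anchored MMP known from leukocytes, had the smallest adjusted p of the 7 and was at a low level. In SAF it was at 0.716, 0.511 and 0.470 CPM at 1 month, at 0.683, 0.669 and 0.361 CPM at 3 months and at 0.312, 0.387 and 0.320 CPM at 6 months. In VAF it was at 1.71, 0.903 and 1.39 CPM at 1 month, at 0.845, 2.43 and 1.81 CPM at 3 months and at 1.18 and 1.53 CPM at 6 months. The 9 SAF and 8 VAF libraries did not overlap, while VAF6-3, at 0.647 CPM, lay within the range of SAF. These values rest on 5 to 13 counts per SAF library and 16 to 48 per VAF library. The log2FC was -1.60 ± 0.28 (edgeR, adjusted p = 0.00809). It was called without each of the 17 libraries in turn, with adjusted p between 0.00418 and 0.0334. Of the 6 neutrophil markers, which summed to 3.83 to 7.81 CPM in SAF, the sum was between 2.96 and 8.60 CPM in VAF apart from VAF1-3, at 54.9 CPM, where MMP25 was at 1.39 CPM. The 7 macrophage markers were also higher in VAF at 1 and at 3 months, with no overlap. They summed to 192.1 to 394.0 CPM in SAF without SAF6-3 (608.8 CPM) and to 357.9 to 925.5 CPM in VAF. SAF1-1, the highest SAF library for MMP25 (0.716 CPM), had a macrophage sum of 192.1 CPM. In SAF6-3 MMP25 was at 0.320 CPM. With 5 to 13 counts per SAF library, the order of the SAF libraries for MMP25 is uncertain. In VAF6-3 the macrophage markers summed to 1784 CPM and MMP25 was at 0.647 CPM. The part of either cell type in the MMP25 level was not tested.

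ADAMTS16 cleaves fibronectin and is best known from kidney and gonad. In SAF it was at 2.04, 2.30 and 2.77 CPM at 1 month, at 3.76, 3.77 and 9.55 CPM at 3 months and at 2.81, 13.4 and 3.09 CPM at 6 months. In VAF it was at 20.0, 9.68 and 16.5 CPM at 1 month, at 9.29, 16.0 and 20.6 CPM at 3 months and at 15.2 and 9.46 CPM at 6 months. SAF3-3 and SAF6-2 were the SAF libraries that reached the range of VAF, and VAF6-3 was the highest of all at 30.7 CPM. The log2FC was -1.69 ± 0.33 (edgeR, adjusted p = 0.0139). It was called in 16 of the 17 fits that leave out 1 library, and not without VAF6-1, where the adjusted p was 0.0525. The 8 kidney tubule markers, which include UMOD and LRP2, summed to at most 1.89 CPM in SAF and to 0.317 to 2.88 CPM in VAF apart from VAF3-3, at 27.6 CPM.

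ADAMTSL5 is a microfibril-binding ADAMTS-like protein. It was at 1.31 to 8.32 CPM in SAF (median 2.61, n = 9) and at 3.05 to 16.2 CPM in VAF (median 7.41, n = 8), and the ranges overlapped. VAF6-3 was higher still, at 26.9 CPM. The log2FC was -1.27 ± 0.32 (edgeR, adjusted p = 0.0373). The call was kept in 5 of the 17 fits without 1 library (without SAF1-2, SAF6-3, VAF1-2, VAF1-3 or VAF3-3), and the adjusted p was 0.149 without VAF3-1 and VAF3-2.

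MMP27 belongs to the MMP cluster of chromosome 9, and its product is held inside the cell. It was at 19.8 to 73.1 CPM in SAF (median 52.4, n = 9). In VAF it was at 87.8, 6.93 and 5.28 CPM at 1 month, at 1.74, 0.152 and 4.80 CPM at 3 months and at 20.2 and 5.49 CPM at 6 months. VAF1-1 was thus above every SAF library, VAF6-1 was just above the lowest SAF library, and the other 6 VAF libraries, like VAF6-3 at 10.4 CPM, were below all of SAF. The log2FC was 2.36 ± 0.61 (edgeR, adjusted p = 0.0401). Without VAF1-1 the log2FC was 3.18, and without VAF3-1 and VAF3-2 it was 2.01 with an adjusted p of 0.184. The call was kept in 2 of the 17 fits without 1 library, those without VAF1-1 and without VAF3-3. VAF1-1 also had the highest sum of fibroblast markers (61250 CPM), which is level with SAF1-2 (61170 CPM), where MMP27 was at 73.1 CPM. SAF6-3 had the lowest sum (4617 CPM), with MMP27 at 65.3 CPM. In VAF3-2 the sum was 28180 CPM and MMP27 was at 0.152 CPM. The part of fibroblasts in the MMP27 level was not tested.

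ADAMTSL3, an ADAMTS-like protein of the matrix whose gene is known from studies of body height, was at 76.9, 148.5 and 113.5 CPM in SAF of 1 month, at 97.7, 104.1 and 89.2 CPM at 3 months and at 20.6, 61.8 and 73.4 CPM at 6 months. In VAF it was at 62.0, 67.3 and 40.1 CPM, at 24.1, 26.4 and 57.4 CPM and at 16.8 and 32.7 CPM. The depots did not overlap at 1 and 3 months, and at 6 months SAF6-1 lay among the VAF libraries. VAF6-3, at 122.0 CPM, was above every SAF library but SAF1-2, and with it included the log2FC was 0.76 and did not pass (adjusted p = 0.207). The log2FC was 1.16 ± 0.26 (edgeR, adjusted p = 0.0258), and the call was kept in 13 of the 17 fits without 1 library. It was lost without SAF1-3, VAF1-3, VAF3-2 or VAF6-1 (adjusted p = 0.0512 to 0.113), and the log2FC was 0.94 without VAF3-1 and VAF3-2 (adjusted p = 0.141).

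ADAMTS10, which binds fibrillin microfibrils, was at 37.3 to 145.7 CPM in SAF (median 45.6) and at 20.5 to 49.4 CPM in VAF (median 31.5). SAF6-3 set the upper end, at 145.7 CPM, and SAF6-1 was next at 88.4 CPM. VAF6-3, at 68.2 CPM, was above the other VAF libraries, and with it included the adjusted p was 0.0632. The log2FC was 0.71 ± 0.18 (edgeR, adjusted p = 0.0397), and without SAF6-3 it was 0.56, under the limit on size. The call was kept in 3 of the 17 fits without 1 library (without SAF6-2, VAF1-1 or VAF3-3), and the adjusted p was 0.18 without VAF3-1 and VAF3-2. LOXL4 had a log2FC of 0.98 ± 0.26 (edgeR, adjusted p = 0.0473), and the call was kept in 1 of the 17 fits without 1 library, that without VAF3-3. Its libraries are given with the other lysyl oxidases.

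**Figure D2:**
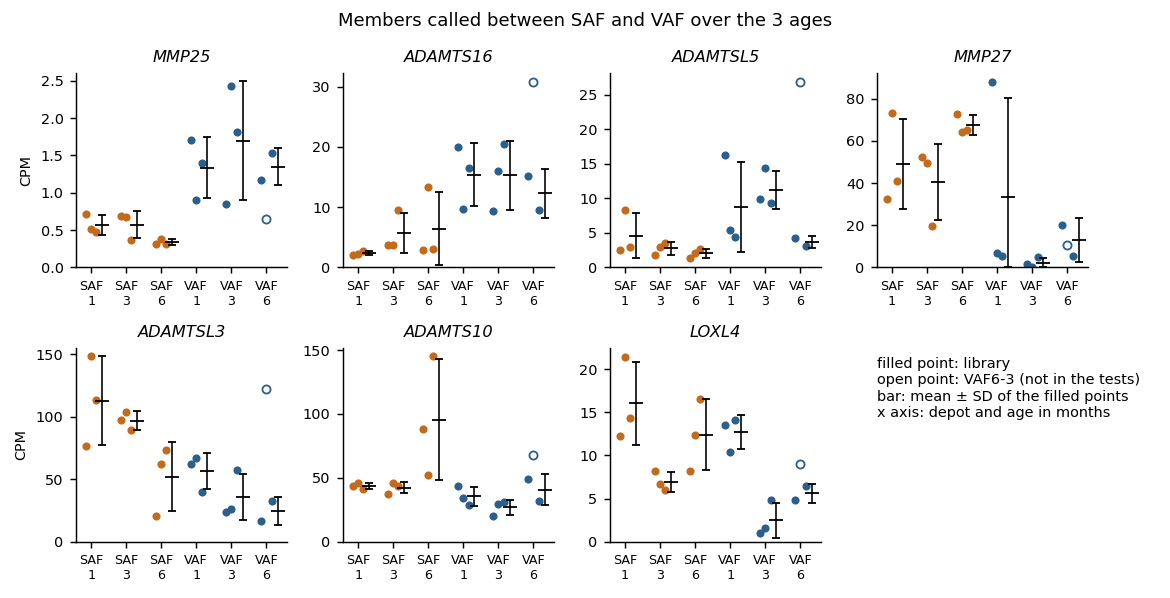
The 7 members called between depots, in CPM, by depot and age in months. Filled points are libraries, the open point is VAF6-3, and the bars are mean ± SD of the filled points with the lower end stopped at 0; MMP25 is the member of the 7 in which no filled SAF point reaches a filled VAF point.

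At single ages the calls were fewer. At 1 month no member was called, nor any of the 16664 genes (0%); edgeR gave 3 members an unadjusted p under 0.05, beside 6.25% of all genes, and DESeq2 called 1, ADAMTS16, beside 0.435%. At 3 months edgeR called 2 members, MMP1 and MMP13, both higher in VAF, beside 2.73% of all genes (2.32% higher in VAF). Both passed the filter only through VAF3-1 and VAF3-2, where they are high, so this count supports nothing about the members. It was 18 when VAF3-3 was left out, which leaves VAF3-1 and VAF3-2 as the VAF group and where 17.8% of all genes were called. At 6 months no member was called, beside 0.012% of all genes; 11 had an unadjusted p under 0.05 in edgeR, beside 10.1% of all genes, and DESeq2 called 1, ADAMTSL1, beside 0.849%. The interaction, which tests whether the difference between depots is the same at the 3 ages, was called for no member and no gene (0%). There edgeR gave 7 members an unadjusted p under 0.05, beside 5.79% of all genes. Without VAF3-3 it called 3, ADAMTSL1, MMP1 and MMP13, beside 2.19%, and DESeq2 called ADAMTSL1 and MMP13, beside 0.469%. The fit therefore does not show for any member that the difference between depots changed with age.

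Lysyl oxidases oxidise lysine side chains of collagen and elastin so that the fibres can be crosslinked. LOXL2, which acts on the network of collagen IV in basement membranes, was the most abundant of the 5 per length and was called between ages in both depots. In SAF it was at 497.5, 470.1 and 612.7 CPM at 1 month, at 299.2, 184.9 and 226.2 CPM at 3 months and at 118.9, 153.5 and 69.8 CPM at 6 months. The 3 ages did not overlap in SAF. From 1 to 6 months LOXL2 fell in SAF (log2FC -2.21 ± 0.35, edgeR, adjusted p = 0.00969), and it was the 1 member called in this comparison, beside 0.816% of all genes (0.6% lower at the older age). The call was kept in 16 of the 17 fits without 1 library, and not without SAF1-3 (adjusted p = 0.0517). Its steps from 1 to 3 months (log2FC -1.15 ± 0.34, adjusted p = 0.344) and from 3 to 6 months (log2FC -1.06 ± 0.34, adjusted p = 0.273) did not pass in edgeR. Without SAF6-3, whose sum of fibroblast markers was lowest, the log2FC from 1 to 6 months was -1.95 (edgeR, adjusted p = 0.0312).

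In VAF, LOXL2 was at 362.8, 307.2 and 374.8 CPM at 1 month, at 69.5, 62.1 and 157.5 CPM at 3 months and at 92.3 and 120.9 CPM at 6 months, with 68.0 CPM in VAF6-3. The libraries of 1 month lay above all of the later ones. From 1 to 3 months it fell (log2FC -1.86 ± 0.35, edgeR, adjusted p = 0.0277), one of 4 members called beside 1.67% of all genes. LOXL2 and LOXL4 were lower at 3 months, beside 0.504% of all genes, and MMP1 and MMP13 higher, beside 1.16%. MMP1 and MMP13 passed the filter only through VAF3-1 and VAF3-2, where they are high, so their part of this count supports nothing about the members. Without VAF3-1 and VAF3-2 the log2FC of LOXL2 was -1.17. Its call was lost without any one of VAF1-1, VAF1-2, VAF1-3, VAF3-1 and VAF3-2 (edgeR, adjusted p = 0.0774 to 0.137). From 1 to 6 months the log2FC was -1.72 ± 0.40 (adjusted p = 0.113 in edgeR; called without SAF6-3 or VAF3-3, at 0.0322 and 0.0346), and from 3 to 6 months it was 0.15 (adjusted p = 0.874). Between depots, LOXL2 had a log2FC of 0.66 ± 0.20 over the ages (adjusted p = 0.0759; called without SAF6-3 or VAF3-3), with SAF above VAF in all libraries of 1 and of 3 months.

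LOXL4 was at 12.3, 21.5 and 14.4 CPM in SAF of 1 month, at 8.14, 6.63 and 5.99 CPM at 3 months and at 8.24, 12.4 and 16.5 CPM at 6 months. In VAF it was at 13.5, 10.4 and 14.1 CPM at 1 month, at 1.00, 1.62 and 4.80 CPM at 3 months and at 4.82 and 6.41 CPM at 6 months. VAF6-3, at 8.98 CPM, lay within SAF of 6 months. With VAF6-3 included, the log2FC between depots was 0.89 and did not pass (edgeR, adjusted p = 0.0543). The lowest libraries were VAF3-1 and VAF3-2. LOXL4 fell from 1 to 3 months in VAF (log2FC -2.35 ± 0.45, edgeR, adjusted p = 0.0309). Without both of these libraries the log2FC was -1.42 with an adjusted p of 0.403, and the call was also lost without any one of these 2, of the 3 VAF libraries of 1 month or of SAF1-3 (adjusted p = 0.0514 to 0.137). In SAF the libraries of 3 months lay below those of 1 month, with a log2FC of -1.21 ± 0.43 that did not pass (adjusted p = 0.493).

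LOX, the founding member of the family, was at 6.69 to 42.9 CPM in SAF (median 17.1) and at 0.859 to 16.2 CPM in VAF (median 4.49). SAF6-3 was highest in SAF, VAF3-3 highest in VAF, and VAF3-1 and VAF3-2 lowest of all, at 1.53 and 0.859 CPM. VAF6-3 was above every other library, at 75.8 CPM. The log2FC between depots was 1.60 ± 0.52 and did not pass in edgeR (adjusted p = 0.0875). It was 0.78 with VAF6-3 included (adjusted p = 0.48), 1.14 without VAF3-1 and VAF3-2 (adjusted p = 0.22) and 1.43 without SAF6-3 (adjusted p = 0.136), and without VAF3-3 it was 2.39 and passed (adjusted p = 0.00169). LOXL1, which acts on elastic fibres, was at 10.8 to 57.7 CPM in SAF and at 17.9 to 141.7 CPM in VAF, with VAF1-1 highest, and its log2FC between depots was -0.44 (adjusted p = 0.476). LOXL3 was at 7.56 to 38.2 CPM in SAF and 9.52 to 43.2 CPM in VAF (log2FC -0.38, adjusted p = 0.459). LOXL3 overlaps HTRA2 on the other strand, and the strand setting of the counting is not given in the sources used here. The median log2FC of the 5 lysyl oxidases was -0.87 from 1 to 3 months in VAF and -0.63 from 1 to 6 months in SAF, against 0.01 over all genes in both comparisons.

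**Figure D3:**
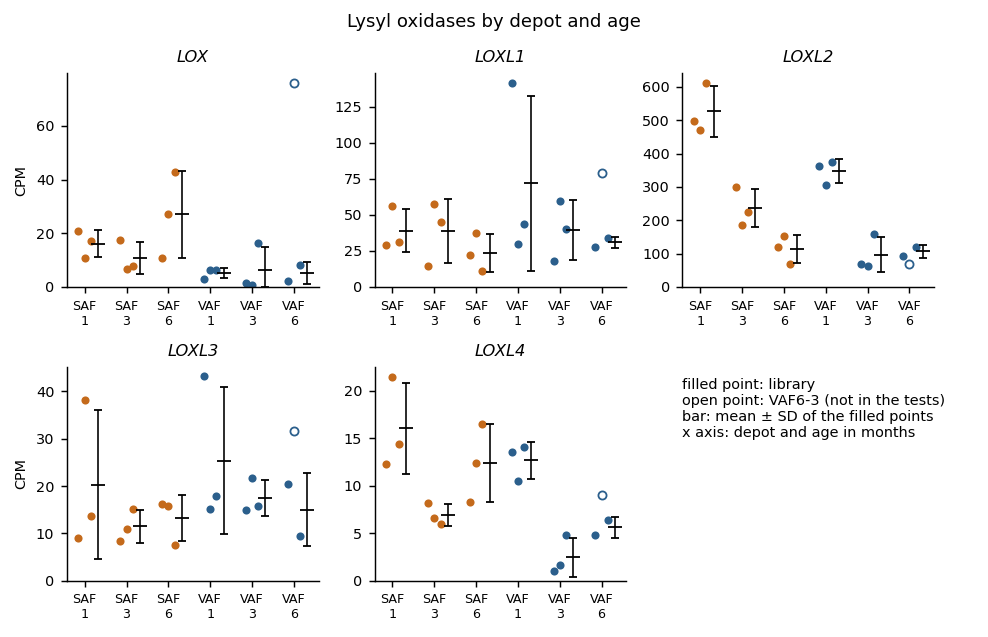
The 5 lysyl oxidases in CPM, by depot and age in months, with libraries as filled points, VAF6-3 as the open point and bars of mean ± SD of the filled points, lower ends stopped at 0. LOXL2 is highest at 1 month in both depots, at 470.1 to 612.7 CPM in SAF and 307.2 to 374.8 CPM in VAF.

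None of the 4 TIMPs was called by edgeR in any comparison, and DESeq2 called TIMP1 between depots (adjusted p = 0.0463). An unadjusted p under 0.05 in edgeR was reached by TIMP1 between depots over the ages, by TIMP1 between depots at 3 months and in VAF from 3 to 6 months, by TIMP2 in SAF from 3 to 6 months and by TIMP3 in VAF from 1 to 3 months. TIMP1 was at 17.2 to 60.6 CPM in SAF (median 23.4) and at 19.4 to 148.3 CPM in VAF (median 44.9). The highest values were those of VAF3-2 (148.3 CPM), VAF1-1 (94.2) and VAF3-1 (80.9), and the depots overlapped. Its log2FC between depots was -0.94 ± 0.34 (adjusted p = 0.113 in edgeR), and it was -0.31 without VAF3-1 and VAF3-2 and -1.09 without VAF3-3, where it passed (adjusted p = 0.0146). TIMP2 was at 258.5 to 1041 CPM in SAF and 246.6 to 640.8 CPM in VAF, and its log2FC of 0.16 turned negative under some alternatives. TIMP3, which is bound to the matrix, was at 375.3 to 867.2 CPM in SAF and 332.2 to 772.7 CPM in VAF (log2FC -0.14, adjusted p = 0.62). TIMP4, known from fat and heart, was at 81.9 to 167.1 CPM in SAF and 56.7 to 224.9 CPM in VAF (log2FC 0.21, adjusted p = 0.598), and VAF3-1 and VAF1-1 were the lowest libraries, at 56.7 and 66.6 CPM. TIMP1, TIMP3 and TIMP4 overlap the synapsin genes SYN1, SYN3 and SYN2 on the other strand, and TIMP2 overlaps CEP295NL on the same strand.

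The abundant proteases MMP2 (log2FC 0.51 ± 0.31, adjusted p = 0.316) and MMP14 (0.36 ± 0.30, adjusted p = 0.464) did not pass between depots in edgeR, and without SAF6-3 the log2FC was 0.18 for MMP2 and -0.07 for MMP14. MMP2 was at 501.0 to 2970 CPM in SAF (median 749.4) and at 380.9 to 1240 CPM in VAF (median 691.1). MMP14 was at 248.6 to 1476 CPM in SAF (median 324.7) and at 219.6 to 771.0 CPM in VAF (median 346.1). Both had their highest value in SAF6-3, which was the highest of the 17 libraries for 11 of the 52 members with more than 3 counts in a library. The others were TIMP2, TIMP3, LOX, ADAMTS5 (299.9 CPM against at most 164.2 in the other libraries), ADAMTS4, ADAMTS10, ADAMTS13, MMP3 and MMP8. In the same library COL1A1 was at 2084 CPM and COL3A1 at 2083 CPM, the lowest of the 17 libraries for each, and 17 of the 52 members had their lowest SAF value there, among them ADAMTS2, ADAMTS12, LOXL1, LOXL2 and TIMP1. In VAF, 16 members were lowest in VAF3-1 and 12 in VAF6-2. Such counts were not made over all genes, so they do not set the members apart from other genes of these libraries. ADAMTS4 and ADAMTS5 are the aggrecan- and versican-cleaving enzymes. Outside SAF6-3, MMP2 was highest in SAF1-2 (1292 CPM) and VAF1-1 (1240 CPM), the libraries with the highest sums of fibroblast markers.

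MMP9, the gelatinase stored in neutrophils, was at 0.361 to 4.51 CPM in 16 of the 17 libraries and at 27.0 CPM in VAF1-3. That library was also highest for the neutrophil markers, at 54.9 CPM against 2.96 to 8.60 CPM elsewhere, of which CSF3R gave 51.5 CPM, while S100A8 was at 0.246 and S100A9 at 0.778 CPM. It was also highest for the macrophage markers, at 925.5 CPM against at most 617.0 CPM in the others, with MSR1 at 154.5 CPM. The part of either cell type in the MMP9 level was not tested.

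**Figure D4:**
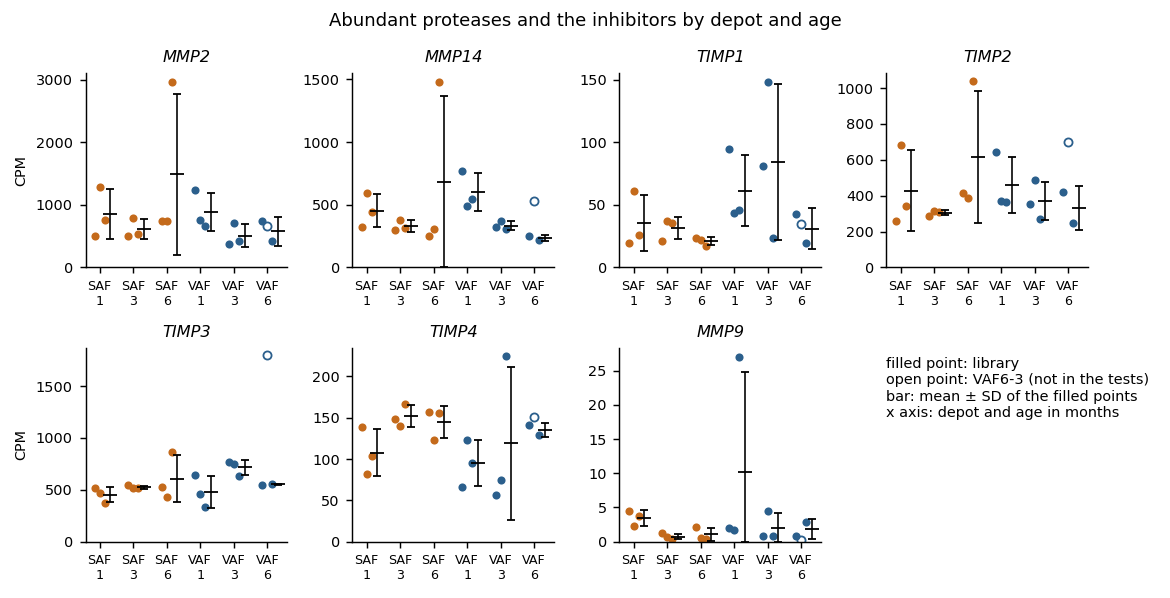
MMP2, MMP14, the 4 TIMPs and MMP9 in CPM, by depot and age in months, with libraries as filled points, VAF6-3 as the open point and bars of mean ± SD of the filled points, lower ends stopped at 0. SAF6-3 is the highest SAF point for MMP2 (2970), MMP14 (1476), TIMP2 (1041) and TIMP3 (867.2), and VAF1-3 stands alone for MMP9 (27.0).

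Of the MMP genes in the table, 8 lie side by side on chromosome 9 of Sscrofa11.1, all on the minus strand and within 402 kb (chr9:33214590-33616700). These 8 are, in order of position, MMP7, MMP20, MMP27, MMP8, MMP1, MMP3, MMP12 and MMP13. MMP1 and MMP13 are collagenases, which cut the triple helix of fibrillar collagen, and MMP7 is the small matrilysin of epithelia. MMP1 had 2274 counts in VAF3-1, 453 in VAF3-2 and 0 in VAF3-3, and 0 to 3 counts in every other library. MMP13 had 2088, 229 and 0 counts in these libraries and 0 to 4 elsewhere. MMP7 had 34, 13 and 0 counts and 0 to 3 elsewhere. The 3 genes were thus detected above 4 counts in the same 2 of 18 libraries, and the third VAF library of 3 months had none of them.

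Both MMP1 and MMP13 were among the calls in VAF against SAF at 3 months and in VAF of 3 against 1 month. They passed the filter only through VAF3-1 and VAF3-2, and without either of these libraries, or with VAF6-3 included, neither passed, so the calls add nothing to the counts and their p-values are not given. SAF of 3 months held 1 count of each gene in all. The ratio of VAF to SAF at 3 months, per total count, was 2730 for MMP1 (95% exact interval 490.0 to 108000) and 2320 for MMP13 (416.0 to 91800), which covers counting error only. The groups overlapped, since VAF3-3 and libraries of SAF were at 0 counts. The urothelial markers were at 1468 and 548.6 CPM in these libraries and at 4.97 CPM in VAF3-3, and the smooth muscle markers at 8498, 7821 and 556.3 CPM. MMP1 was at 120.0 CPM in VAF3-1 and 22.9 CPM in VAF3-2, and MMP13 at 110.2 and 11.6 CPM, so that VAF3-1 was the higher for both genes and for the urothelial sum. The part of that tissue in the counts was not tested.

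MMP3, between MMP1 and MMP12 in the cluster, had 176 counts in SAF6-3 and at most 15, in VAF3-1, elsewhere. MMP8, the collagenase of neutrophils, had 94 counts in SAF6-3 and at most 9 elsewhere. In SAF6-3 the neutrophil markers summed to 6.34 CPM, which is within the range of the other SAF libraries. Neighbours in the cluster were therefore detected in different libraries, with MMP1, MMP13 and MMP7 in VAF3-1 and VAF3-2, MMP3 and MMP8 in SAF6-3, and MMP27 highest in the SAF libraries and VAF1-1.

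The window from 250 bases before to 50 after the annotated start is shown for MMP3, the member of the cluster with counts almost only in SAF6-3. It was read from the Sscrofa11.1 genome at the RefSeq start, on the minus strand, as chr9:33453946-33454245. Capitals mark matches, on either strand, to TATAAA, the core of a TATA box, and to TGANTCA, the site of AP-1 factors.
MMP3: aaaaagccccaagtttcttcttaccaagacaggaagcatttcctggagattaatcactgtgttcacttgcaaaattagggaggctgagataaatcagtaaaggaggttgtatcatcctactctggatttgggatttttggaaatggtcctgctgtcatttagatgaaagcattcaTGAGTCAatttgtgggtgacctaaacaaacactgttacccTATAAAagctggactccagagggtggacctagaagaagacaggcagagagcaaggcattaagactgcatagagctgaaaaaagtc
The MMP3 window holds TGANTCA from position -75 and TATAAA from position -35. Of 19556 windows of protein-coding genes read in the same way, 6.07% hold TGANTCA and 10.9% hold TATAAA. The matches describe the letters of this window only.

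**Figure D5:**
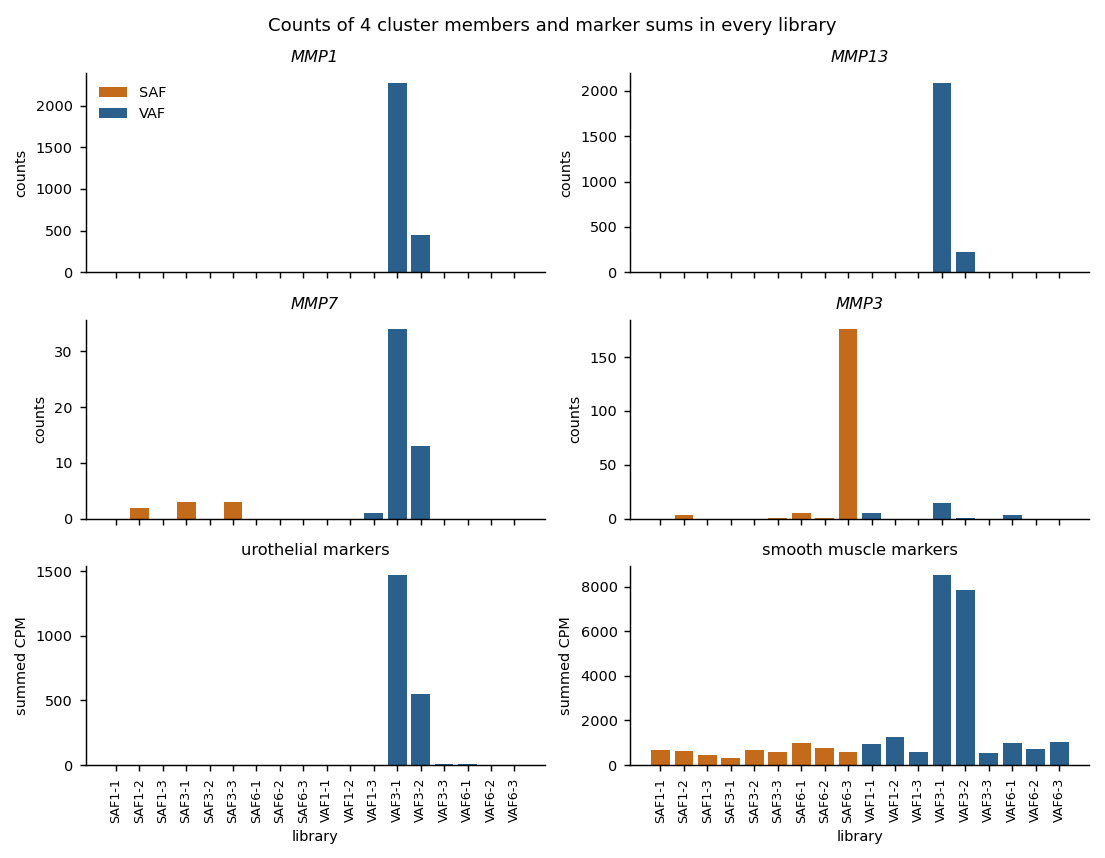
Counts of MMP1, MMP13, MMP7 and MMP3 in each of the 18 libraries, with the summed CPM of the urothelial and smooth muscle markers below. The bars of MMP1, MMP13 and MMP7 stand in VAF3-1 and VAF3-2, as do those of both marker lists, and the bar of MMP3 stands in SAF6-3 (176 counts).

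The remaining ADAMTS genes passed in no comparison in edgeR. ADAMTS2, which removes the N-terminal propeptide of fibrillar procollagens, was at 105.8 to 425.2 CPM in SAF and 135.4 to 415.7 CPM in VAF. ADAMTS1 had a log2FC of 0.54 ± 0.15 between depots, with an adjusted p of 0.048 but a size under the limit, and was at 36.4 to 86.7 CPM in SAF and 26.8 to 66.2 CPM in VAF. ADAMTS12, which cleaves COMP, was at 28.7 to 152.9 CPM in SAF and 29.0 to 120.0 CPM in VAF. Of the 19 ADAMTS genes, 14 had a positive log2FC between depots, with a median of 0.23 against -0.01 over all genes. ADAMTSL4, which is linked to the zonule of the eye lens, was at 19.9 to 82.9 CPM in SAF and 36.0 to 162.8 CPM in VAF, and was highest in VAF1-1. MMP19 was at 84.2 to 142.5 CPM in SAF and 59.2 to 178.4 CPM in VAF, and MMP11 was at 52.6 to 96.2 CPM in SAF and 51.4 to 103.2 CPM in VAF.

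Between ages, most members were lower at 6 than at 1 month without passing the test. In SAF 34 of 49 had a negative log2FC from 1 to 6 months, with a median of -0.5 against 0.01 over all genes, and 1 was called. Without SAF6-3, the lowest SAF library for 17 members, it was 37 of 48 with a median of -0.58. In VAF 39 of 49 had a negative log2FC, with a median of -0.61 against -0.03, which was 31 of 45 (median -0.3) with VAF6-3 included and 29 of 50 (median -0.19) under the other reading of the labels. None was called by edgeR, beside 0.09% of all genes; 13 had an unadjusted p under 0.05, beside 13% of all genes, and DESeq2 called 3, which were ADAMTSL1, LOXL2 and MMP16, beside 2.82%. The sum of the fibroblast markers, most of it COL1A1 and COL3A1, was also lower at 6 months, with ranges that overlapped in both depots. It was at 4617 to 36690 CPM against 34660 to 61170 CPM in SAF and at 12150 to 18170 CPM against 17850 to 61250 CPM in VAF. In SAF each marker of the list but COL3A1 overlapped between these ages. PI16 was at 13.1 to 138.9 CPM there at 6 months, against 21.1 to 112.3 CPM at 1 month. The part of fibroblasts was not tested. The 5 ADAMTS-like genes were all negative in both depots, with medians of -1.12 in SAF and -1.2 in VAF. In SAF each was highest in SAF1-2, a library of 1 month. VAF6-3, which was not in this fit, was at 122.0 CPM for ADAMTSL3, 158.0 CPM for ADAMTSL4 and 26.9 CPM for ADAMTSL5. VAF of 1 month reached at most 67.3, 162.8 and 16.2 CPM for these genes. For ADAMTSL1 and ADAMTSL2, VAF6-3 was at 3.50 and 2.21 CPM, against at most 9.69 and 5.42 CPM. From 1 to 3 months in SAF no member was called by edgeR or DESeq2, beside 0.024% of all genes, and 7 had an unadjusted p under 0.05, beside 7.71%. From 3 to 6 months in SAF none was called by edgeR, beside 0.126% of all genes; 9 had an unadjusted p under 0.05, beside 9.42%, and DESeq2 called ADAMTS5 and ADAMTS10, beside 1.78%. From 3 to 6 months in VAF none was called by edgeR, beside 0.042% of all genes; 15 had an unadjusted p under 0.05, beside 18.1%, and DESeq2 called 7, beside 5.99%. The comparisons that share a group of libraries are not independent of each other.

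Other genes of the same pathways were taken from 4 lists, of which 59 genes were tested. Between depots over the ages 10 of them were called, beside 4.09% of all genes. Of 11 tested genes of the plasminogen system and MMP activation, 3 were called between depots over the ages: RECK, a membrane inhibitor of MMPs, was higher in SAF (log2FC 0.69), and TFPI2 (-0.62) and A2M (-1.60), which also inhibit proteases, were higher in VAF. Of 13 genes of procollagen processing and crosslinking, 1 was called, PCOLCE2, an enhancer of procollagen C-proteinase, which was higher in VAF (-0.88). Of 20 matrix substrates, 2 were called, POSTN (2.72) and THBS1 (1.56), both higher in SAF. Of 15 other matrix proteases, 4 were called: ADAMDEC1 (3.31), FAP (0.70) and CTSK (0.78), the collagen-degrading cathepsin of osteoclasts and fibroblasts, were higher in SAF, and HTRA3 (-1.47) was higher in VAF. Without VAF3-1 and VAF3-2, ADAMDEC1, POSTN and HTRA3 of these 10 were called. At 3 months 7 genes of the 4 lists were called between depots, beside 2.73% of all genes. POSTN (3.19), ADAMDEC1 (3.45) and FAP (1.16) were higher in SAF, and A2M (-3.59), SERPINF2 (-3.21), FBLN1 (-2.64) and TFPI2 (-0.96) were higher in VAF. Without VAF3-1 and VAF3-2, VAF3-3 is the only VAF library of 3 months, so the fit cannot tell which of these calls hold. The log2FC at 3 months was then 2.46 for POSTN, 3.16 for ADAMDEC1 and 0.76 for FAP. It was -1.1 for A2M, -1.63 for SERPINF2, -0.38 for FBLN1 and -0.63 for TFPI2.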

How the data were processed

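Total RNA of 18 fat samples was sequenced as paired reads with the TruSeq RNA kit. Read filtering by the authors used fastp, alignment to Sscrofa11.1 used HISAT2 (version 2.0.4 in the submitters' processing notes), and HTSeq-count gave the raw counts per gene that were deposited. The annotation release and strand setting are not given in the sources used here. No column of sample values was set aside, and 29862 of the 29884 symbols matched RefSeq. Members, lists and alternatives were chosen with earlier results of these data known.

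Counts were fitted with edgeR 4.0.16 under R 4.3.3 (TMM, quasi-likelihood test, filterByExpr, means of the 6 groups, 17 libraries, 11 residual degrees of freedom, biological coefficient of variation 0.36). DESeq2 1.42.0 was an alternative, with DESeq2 size factors in edgeR, no filter, the other reading of the labels and VAF6-3 included. Further alternatives were each single library left out, a replicate block and fits of 2 groups. The replicate block was each age and number for depots, and the number alone for ages. Leaving out VAF3-1 and VAF3-2 together was chosen after seeing the data. CPM per kb used the union of RefSeq exons. Each called member, each TIMP and lysyl oxidase and the most abundant member of each group were named by rule; MMP3, MMP7, MMP8 and MMP9, and the members listed for single libraries, were named after their values were seen. P-values set a difference between groups against the spread between libraries, which the main test takes as independent. Genes under 1 CPM rest on few counts. The fit was run on simulated counts with set changes, independent libraries and no deviating library. That run checks the code and not the calls made here. Some sequences are not reported here.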

Additional observations from a re-analysis of the deposited data

Results flagged for a closer look

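ADAMTS6 was at 73.7 CPM in VAF6-3, the library outside the tests, against at most 19.3 CPM in the 17 others (VAF3-3). TIMP3 was at 1798 CPM in VAF6-3, against at most 867.2 CPM in the others (SAF6-3). Both were singled out because this library lay more than 2 times above all the rest.

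MMP19 moved in opposite directions from 3 to 6 months, with every SAF library lower (log2FC -0.48) and every VAF library higher (0.50), and its difference between depots was 0.73 at 3 months and -0.24 at 6 months. MMP16 had a difference between depots of -0.60 at 3 months and 1.03 at 6 months, again with no overlap at either age, but VAF of 6 months had 2 libraries there, and VAF6-3, at 9.94 CPM, lay within SAF of that age. The test of a change of the depot difference over the 3 ages did not pass for MMP19 (edgeR, adjusted p = 0.68) or MMP16 (edgeR, adjusted p = 0.93). No group has the 4 samples that a test for a single outlying sample needs.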

How the results depend on the processing

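DESeq2 called 11 members over the ages, beside 7.81% of all genes. At 1, 3 and 6 months it called 1, 12 and 1, beside 0.435%, 6.88% and 0.849%. In SAF from 3 to 6 and 1 to 6 months there were 2 and 4, beside 1.78% and 3.11%. In VAF from 1 to 3, 3 to 6 and 1 to 6 months there were 7, 7 and 3, beside 4.57%, 5.99% and 2.82%. The interaction had 2, beside 0.469%. With VAF6-3 included there were 4 over the ages, beside 4.45% of all genes. There were 0 at 3 months and 2 in VAF from 1 to 3 months, beside 2.12% and 1.05%. Under the other reading of the labels there were 4 over the ages, beside 4.14% of all genes. ADAMTS16, ADAMTSL5 and MMP25 were kept, LOXL2 was added, and ADAMTS10, ADAMTSL3, LOXL4 and MMP27 were lost. The same reading gave 7 at 3 months and 6 in VAF from 3 to 6 months, beside 4.88% and 10.7%. Without a filter there were 4 at 3 months and 1 in VAF from 3 to 6 months, beside 2.33% and 0.296%. Fits of 2 groups gave 0 at 3 months, beside 0.0401%. In VAF they gave 0 from 1 to 3 months and 1 from 1 to 6 months, beside 0% and 0.936%. Leaving out both VAF3-1 and VAF3-2 keeps VAF3-3 as the only VAF library of 3 months, so no conclusion is drawn from counts of that age. Without VAF3-1 and VAF3-2 there were 2 over the ages, 0 at 3 months, 2 in SAF from 1 to 6 months, 0 in VAF from 1 to 3 months and 2 from 1 to 6 months.

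With 1 library left out, the count over the ages was highest without VAF3-3, at 12, beside 12.9% of all genes. It was lowest without VAF6-1, which leaves VAF6-2 as the only VAF library of 6 months. The count ranged from 0 to 18 at 3 months and from 0 to 3 in the interaction. In VAF it ranged from 0 to 10 from 1 to 3 months and from 0 to 11 from 3 to 6 months. These upper ends were also without VAF3-3, beside 17.8%, 2.19%, 8.76% and 12.9%. In SAF the range was 0 to 2 from 3 to 6 and from 1 to 6 months. Without SAF6-2, which reached both upper ends, 0.409% and 0.86% of all genes were called. In VAF from 1 to 6 months it was 0 to 4, the upper end being without SAF6-3, beside 1.8%.

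Same-numbered SAF and VAF libraries of an age deviated together with a mean r of 0.286, over 0.1 in 6 of 9 pairs. At 6 months r was 0.52 to 0.702 in same-numbered pairs and -0.663 to 0.263 in the other pairs. At 3 months it was -0.013 to 0.479 against -0.478 to 0.232, and at 1 month -0.201 to 0.329 against -0.329 to 0.336. Both depots come from the same pigs, but the sources used here do not say that the numbers mark them. The main test therefore did not use the numbers as pairs, and the fit that does is given next. For depots, a block for each age and number, which pairs same-numbered SAF and VAF libraries, gave 4 over the ages, beside 2.98% of all genes. They were ADAMTS16, ADAMTSL3, MMP25 and LOXL2, while ADAMTS10, ADAMTSL5, LOXL4 and MMP27 were lost. For ages, the block was the replicate number alone, which joins different pigs. It gave 1 in VAF from 3 to 6 months and 1 from 1 to 6 months, beside 0.054% and 0.102%.

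The sign of uncalled values changed for LOXL2 in VAF from 3 to 6 months (-0.05 with VAF6-3, -0.55 without VAF3-1 and VAF3-2, -0.10 to 0.67 with 1 library left out, among them -0.06 without VAF3-1 and -0.08 without VAF6-2), for TIMP2 between depots (-0.06 under the other reading, -0.04 with the replicate block, -0.04 to 0.31 with 1 library left out, among them -0.04 without SAF6-3 and -0.01 without SAF1-2) and for TIMP4 (-0.10 without VAF3-1 and VAF3-2). LOXL2 in SAF from 1 to 6 months and LOXL2 and LOXL4 in VAF from 1 to 3 months were called under the other reading. They were also called with the block of the replicate number alone. The causes were not tested.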
